A study of Mus musculus with 16 samples.

Results

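Testes lacking Wnt4 were compared with ovaries lacking Wnt4 in the mouse at embryonic day 14.5 (E14.5), to see which differences between the male and the female gonad are measured when the gene is absent from both. The comparison uses every array labelled Wnt4 knock-out (KO) at that stage, 2 from testis and 2 from ovary, so 4 of the 16 arrays of the series. The other arrays come from wild-type (WT) testis and WT ovary at E14.5, KO testis and KO ovary at E12.5, and WT testis and WT ovary at E12.5, with 2 arrays in each group. All 8 groups share 1 variance per gene in the fit, and the WT pair of E14.5 and the KO pair of E12.5 are described only where they show what differs in the KO pair of E14.5. The titles of the male arrays name an ovary while their source names give a testis, and they are treated here as testis. Gonads were dissected and kept frozen until the embryos had been genotyped, and arrays of the same group are described as biological replicates, without saying whether each holds 1 embryo or a pool. The kind of Wnt4 allele and the strain are not stated in the labels. Each array measured total gonad RNA by hybridisation, and its values are fluorescence intensities on a linear scale.

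In the mouse the gonads of both sexes start from a common primordium. In XY embryos the SRY and SOX9 proteins set the supporting cells on the Sertoli path. Sertoli cells enclose the germ cells in cords and signal through Desert hedgehog to the interstitium, where fetal Leydig cells make androgens. In XX embryos the secreted ligand WNT4, together with RSPO1, acts through beta-catenin in the supporting cells, which become pre-granulosa cells, and germ cells enter meiosis. XX gonads without Wnt4 are known to gain a male-type coelomic vessel, cells that express steroidogenic enzymes and some testis traits. The 12332 genes tested comprised 11867 autosomal genes, which are the ones counted and named below, 444 sex-linked or mitochondrial genes and 21 of unknown chromosome.

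Wnt4, the deleted gene, gave intensities of 277 and 371 in KO testis and 351 and 302 in KO ovary, against 753 and 512 in WT testis and 1138 and 1150.5 in WT ovary. A further Wnt4 probe set gave 98.8 and 106 in KO testis and 101 and 102 in KO ovary, against 272 and 165 in WT testis and 513 and 423 in WT ovary. Every KO array was thus below every WT array of E14.5 on both probe sets, yet a signal remained in the KO arrays. Where these probes lie relative to the deleted part is not stated in the labels, which means that the signal alone does not check them. Between the KO gonads Wnt4 did not pass the test (log2 difference -0.02, SE 0.36, adjusted p = 0.989).

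Array means at E14.5 and E12.5 lay between 272 and 288. KO testis replicate 2 stood apart from replicate 1 in Xist, the RNA made from the inactive X chromosome of female cells. Its Xist intensity was 788, against 7.95 in KO testis replicate 1 and 5805 and 4088 in the KO ovaries. KO testis replicate 2 thus carried 16.5% of the mean ovary level of the stage. The KO ovaries carried 0.277% and 0.432% of the Y-linked signal of testis. Similar values were 22.8% Xist in WT testis replicate 2 and 19.9% Y-linked signal in WT ovary replicate 2, so the WT pair holds an array with RNA of the other sex in each group. Counts are therefore also given without KO testis replicate 2. Ratios of 3' to 5' signal were 1.14 and 1.36 in the KO testes and 1.13 and 1.11 in the KO ovaries. The 2 arrays of a group differed by an SD of 0.370 in KO testis and 0.335 in KO ovary over all genes tested on the log2 scale. The 2 WT testis arrays of E12.5 differed by only 0.142, the smallest SD of any group, where the others had 0.335 to 0.593. They enter the variance shared by all groups, and whether they are separate biological samples was not tested. With these 2 arrays averaged, the counts for the KO pair, the WT pair and the stages were all lower. These arrays are whole gonads, so fewer cells of a type and less RNA per cell cannot be told apart. With 2 arrays a group, the number of arrays limits precision, and p-values measure the spread between these arrays alone.

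Between KO testis and KO ovary 606 of 11867 autosomal genes (5.11%) passed an adjusted p of 0.05 in limma, an empirical Bayes linear model, with Benjamini-Hochberg adjustment over all genes tested. Of these, 446 (3.76%) were higher and 160 (1.35%) lower in KO testis. At least a 2-fold difference was fitted for 326 of the higher and 115 of the lower genes, and at least a 4-fold difference for 109 and 33. The median log2 difference over all autosomal genes was 0.03, and 53.1% of them were above 0. In all 606 genes the KO testis arrays did not overlap the KO ovary arrays. The genes were picked by a test on these same arrays, so this adds no support. Without KO testis replicate 2 the count was 284, of which 274 were among the 606, and the log2 differences of the 606 kept a median of 1.01 times their size. Leaving out KO testis replicate 1, KO ovary replicate 1 or KO ovary replicate 2 gave 325, 295 and 294 genes. Fold changes here are on the log2(intensity + 4) scale and understate the change of genes with low intensity.

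The 2 KO testes were similarly far from the KO ovaries for the higher genes, with median log2 differences of 1.385 for replicate 1 and 1.393 for replicate 2. Replicate 2 was the nearer one to the ovaries in 229 of the 446 higher genes (51.35%) and in 100 of the 160 lower genes (62.5%). The median differences of the lower genes were -1.25 for replicate 1 and -1.30 for replicate 2. Stra8, Irx3 and Foxl2 lay closer to the ovary in replicate 2, as the plot of the KO testis arrays against each other shows, and Cst12 lay closer in replicate 1. The part of Xist-positive RNA in these values was not tested.

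**Figure D1:**
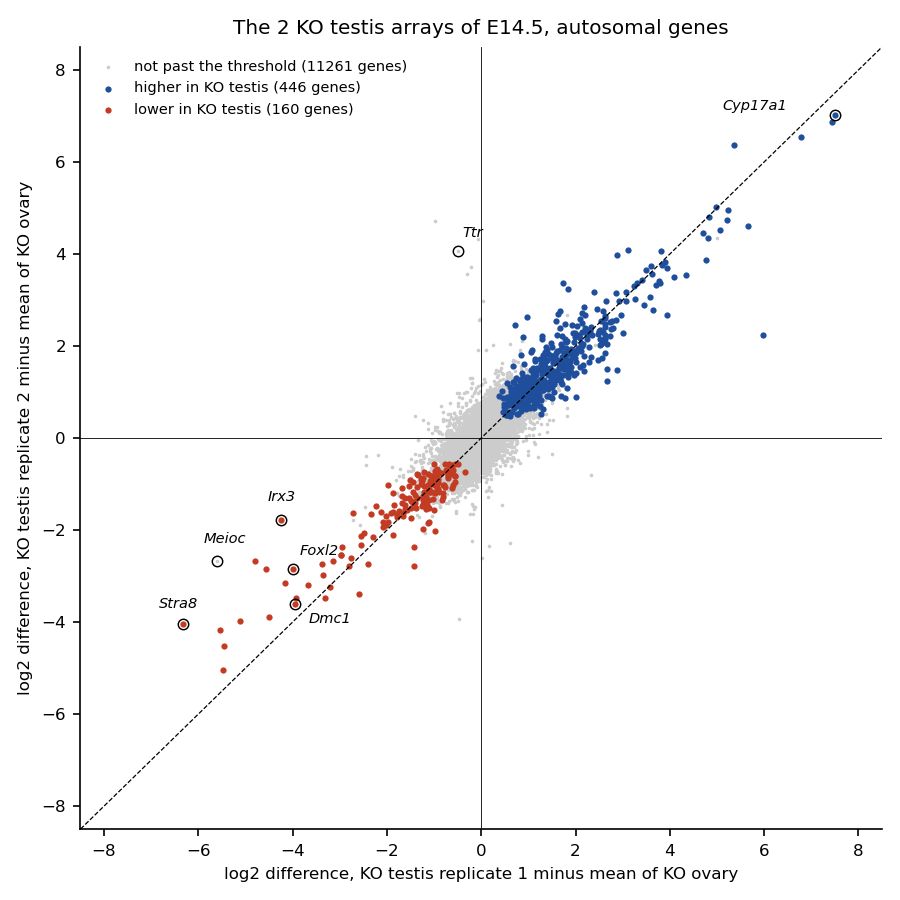
Log2 difference of each KO testis array of E14.5 from the mean of the KO ovary arrays, replicate 1 on the horizontal axis and replicate 2 on the vertical axis, 1 point per autosomal gene. Blue points are the 446 genes higher and red points the 160 genes lower in KO testis, grey points did not pass, and the dashed line marks equal values; at the lower end Stra8, Meioc, Irx3 and Foxl2 lie above the line, nearer to 0 in replicate 2.

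The defining markers followed their labelled gonad in the KO pair. Dhh, which encodes the Desert hedgehog ligand of Sertoli cells, measured 614 and 602 in KO testis, against 16.4 and 19.2 in KO ovary. Its fitted difference was 28.1-fold (log2 4.81, SE 0.76, adjusted p = 0.00192), and 4.83 on the log2 scale without KO testis replicate 2 (adjusted p = 0.0194). A further Dhh probe set gave 49.5 and 21.2 in KO testis, against 3.82 and 4.74 in KO ovary. Star, the carrier of cholesterol into mitochondria for steroid synthesis, measured 1072 and 805 in KO testis, against 70.3 and 77.7 in KO ovary. The groups lay far apart, with a fitted 11.98-fold difference (log2 3.58, SE 0.88, adjusted p = 0.0306), but the adjusted p was 0.125 without KO testis replicate 2. Another 2 Star probe sets gave 1232 and 750.4, and 328 and 221, in KO testis, against 23.04 and 43.16, and 7.96 and 9.59, in KO ovary.

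Stra8, the retinoic acid target that germ cells need to enter meiosis, measured 9.88 and 64.2 in KO testis, against 1149 and 1081 in KO ovary. KO testis replicate 1 was near background and replicate 2 was several times higher, yet both were far below the ovaries (log2 -5.18, SE 0.85, adjusted p = 0.00244). Without replicate 2 the log2 difference was -6.33 (adjusted p = 0.00321). Foxl2, a transcription factor of pre-granulosa cells, measured 7.76 and 22.2 in KO testis, against 176 and 193 in KO ovary. It thus kept a clear ovarian signal without Wnt4 (10.7-fold, log2 -3.42, SE 0.42, adjusted p = 0.000435). A further Foxl2 probe set was near background on every KO array, at 3.43 and 3.10 in KO testis and 5.64 and 5.12 in KO ovary. In WT ovary Foxl2 measured 437 in replicate 1 and 184 in replicate 2, and replicate 2 carried 19.9% Y-linked signal.

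**Figure D2:**
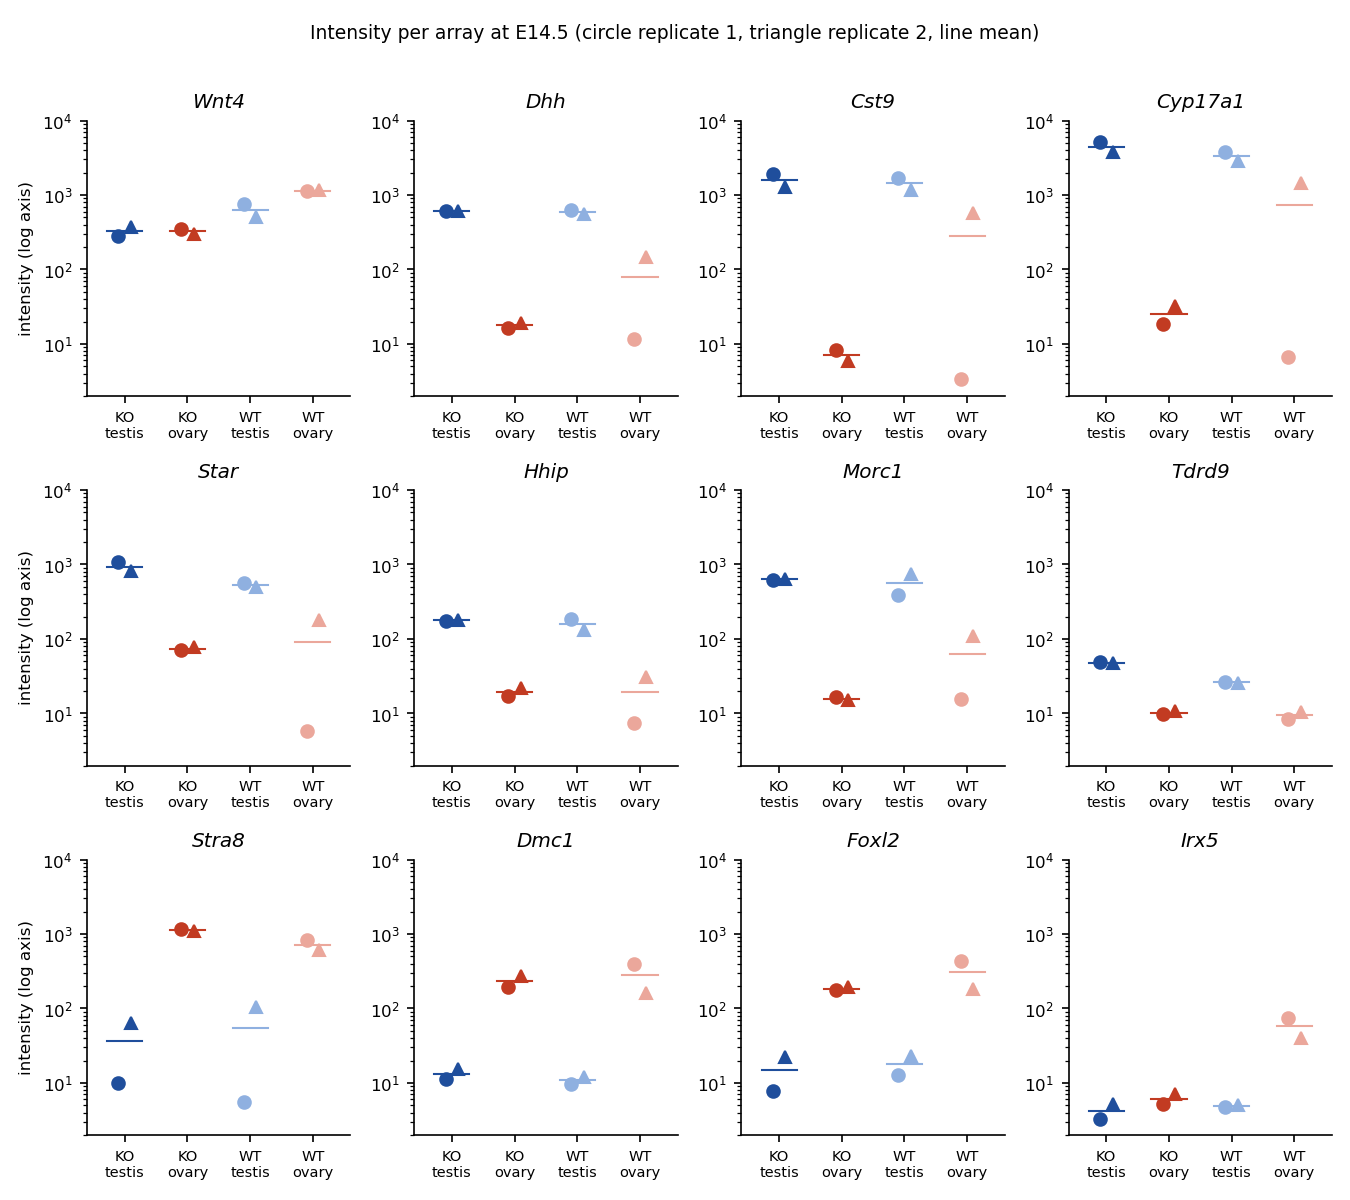
Intensity of 12 genes on each E14.5 array, on a log axis, for KO testis, KO ovary, WT testis and WT ovary from left to right; circles are replicate 1, triangles replicate 2 and lines the group mean. Dhh, Cst9, Cyp17a1, Star, Hhip, Morc1 and Tdrd9 are high in KO testis and low in KO ovary, Stra8, Dmc1 and Foxl2 the reverse, and Irx5 is high in WT ovary alone.

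On the male side the Sertoli cell list held the most genes called. Of 34 listed genes 28 autosomal ones passed the filter on low values, 19 of these were higher in KO testis, none was lower, and 9 did not pass the test. Of all autosomal genes 3.76% were higher and 1.35% lower. The list's median log2 difference was 2.23, against 0.03 over all autosomal genes. Their summed intensity was 23720 and 22840 in KO testis, against 3210 and 4429 in KO ovary, and without KO testis replicate 2 the count higher was 14. A gene can pass the filter through the arrays of 1 group, so these counts, and those of the lists below, describe the measured members and are not evidence for the list.

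Several Sertoli genes had almost no signal in the KO ovaries. Cst9, a cystatin of Sertoli cells, measured 1931 and 1293 in KO testis, against 8.35 and 5.92 in KO ovary, a fitted 143-fold difference (log2 7.16, SE 1.52, adjusted p = 0.0133). Both ovary arrays were near background, and without KO testis replicate 2 the log2 difference was 7.45 with an adjusted p of 0.075. Ptgds, the prostaglandin D synthase that helps to sustain Sox9 in the mouse testis, measured 2506 and 2057 in KO testis, against 48.2 and 81.4 in KO ovary (log2 5.09, adjusted p = 0.0058). Tesc, the calcium-binding protein tescalcin, measured 323 and 273 in KO testis, against 7.51 and 9.69 in KO ovary (log2 4.58, adjusted p = 0.00262). Hsd17b3, which converts androstenedione to testosterone and is made by Sertoli cells of the fetal mouse, measured 263 and 139 in KO testis, against 6.92 and 4.85 in KO ovary (log2 4.31, adjusted p = 0.000661). Replicate 1 was the higher KO testis array for each of these 4 genes, and no array of one sex came near the other.

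Sox9, the transcription factor that directs Sertoli differentiation, measured 95.1 and 101 in KO testis, against 16.3 and 15.3 in KO ovary. The 4 arrays fell into 2 tight pairs (5.17-fold, log2 2.37, SE 0.48, adjusted p = 0.0103), although without KO testis replicate 2 the adjusted p was 0.083. Amh, the hormone that makes the Müllerian ducts regress, measured 42.7 and 31.3 in KO testis, against 2.63 and 2.87 in KO ovary (log2 2.59, adjusted p = 0.000643). Gdnf, a growth factor for spermatogonial stem cells, measured 60.2 and 48.7 in KO testis, against 4.42 and 5.40 in KO ovary (log2 2.71, adjusted p = 0.000553). Other Sertoli genes were strongly expressed in both sexes. Clu, the secreted chaperone clusterin, measured 6168 and 6568 in KO testis, against 1149 and 1827 in KO ovary, which is 4.38-fold (adjusted p = 0.000205).

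Aldh1a1, a retinaldehyde dehydrogenase of Sertoli cells, measured 4041 and 4153 in KO testis, against 559.7 and 763 in KO ovary (6.23-fold, adjusted p = 0.000224). Among the list's genes that did not pass were Cbln4, at 107 and 156 in KO testis and 35.2 and 59.2 in KO ovary (adjusted p = 0.104), and Fgf9, at 17.4 and 32.5 in KO testis and 16.6 and 16.9 in KO ovary (adjusted p = 0.581). Fgf9, a growth factor that opposes Wnt4 in the mouse gonad, thus had KO testis replicate 1 at the level of both ovaries.

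Further genes with large rises in KO testis belonged to no list. Defb19, a defensin of the fetal testis, measured 3525 and 3001 in KO testis, against 21.8 and 36.3 in KO ovary, a fitted 101-fold difference (log2 6.66, adjusted p = 0.000526). Gstm6, a glutathione transferase, measured 477 and 229 in KO testis, against 5.43 and 5.74 in KO ovary (log2 5.13, adjusted p = 0.000478). Ephx1, the microsomal epoxide hydrolase, measured 666 and 479 in KO testis, against 9.83 and 19.4 in KO ovary (log2 4.98, adjusted p = 0.000321). All 3 had low ovary arrays and no testis array near them. Kazald1 and Cstdc1 rose by 4.79 and 4.58 on the log2 scale, with adjusted p of 6.62e-05 and 7.19e-05. Hao2, a peroxisomal hydroxyacid oxidase, rose 15.3-fold to 948 and 541 in KO testis, against 40.4 and 45.8 in KO ovary. Serpina3a, a serine protease inhibitor, also passed (adjusted p = 0.0491) but rested on unequal arrays, at 861 and 60.7 in KO testis and 10.8 and 8.90 in KO ovary.

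The Hedgehog pathway carries the signal of Dhh to interstitial cells, where the receptor Patched and the decoy receptor HHIP are themselves targets. Of 14 autosomal members tested, 3 were higher in KO testis, against 3.76% of all autosomal genes, and none was lower. The median log2 difference of the list was 0.17. The 3 genes were the ligand Dhh and these targets. Hhip measured 175 and 182 in KO testis, against 17.3 and 21.98 in KO ovary (7.78-fold, adjusted p = 0.000801). Ptch1, the receptor, measured 4041 and 4204 in KO testis, against 1834 and 1972 in KO ovary (2.17-fold, adjusted p = 0.00185). Both targets had closely matched replicates, and all 3 genes still passed without KO testis replicate 2. Gli1, a transcription factor of the pathway and a common readout of it, measured 263 and 179 in KO testis, against 119 and 104 in KO ovary, and did not pass (adjusted p = 0.418).

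Steroidogenic genes were the other large male group. Of 28 genes listed for fetal Leydig cells 19 autosomal ones were tested. Among them 8 were higher in KO testis, against 3.76% of all autosomal genes, and none was lower. The median log2 difference of the list was 1.35. Summed intensities were 27440 and 22560 in KO testis, against 10400 and 11150 in KO ovary. Without KO testis replicate 2, 4 genes of the list were higher. Insl3, Lhcgr and Cyp19a1 were among the 8 listed genes with no probe set named in the annotation used.

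Cyp17a1, the enzyme that turns progestagens into androgens, had a fitted difference of 154-fold (log2 7.27, SE 1.57, adjusted p = 0.0145). It measured 5193 and 3721 in KO testis, against 18.3 and 32.5 in KO ovary. Without KO testis replicate 2 its log2 difference was 7.51 with an adjusted p of 0.0823. Hsd3b1, which makes progesterone from pregnenolone, measured 3111 and 2551 in KO testis, against 325 and 478 in KO ovary (7.08-fold, adjusted p = 0.021). Scarb1, the receptor that takes up cholesterol from lipoproteins, measured 1823 and 1651 in KO testis, against 294 and 289.5 in KO ovary (5.88-fold, adjusted p = 0.000529). For both genes the ovary arrays kept a clear signal.

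Fdx1, the electron carrier of mitochondrial steroid enzymes, measured 3997 and 3164 in KO testis, against 1181 and 1046 in KO ovary (3.19-fold, adjusted p = 0.000299). Gramd1b, a cholesterol transporter, measured 131 and 146 in KO testis, against 25.7 and 27.4 in KO ovary (4.65-fold, adjusted p = 0.00206). Nr5a1, the nuclear receptor SF1 that activates steroidogenic genes, measured 244 and 157 in KO testis, against 26.9 and 44.7 in KO ovary (5.14-fold, adjusted p = 0.0496). Its call was near the threshold and had an adjusted p of 0.135 without KO testis replicate 2. Cyp11a1, the enzyme that cleaves the cholesterol side chain, measured 3035 and 1906 in KO testis, against 76.0 and 107 in KO ovary. Its 4 arrays did not overlap, but its SE of 1.37 on a log2 difference of 4.67 left it at an adjusted p of 0.0724. That SE is shared with all groups, and the WT ovaries alone measured 5.50 and 847.

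Of 16 autosomal genes of cholesterol synthesis and uptake tested 7 were higher in KO testis, against 3.76% of all autosomal genes, 9 did not pass, and the median log2 difference was 0.95. Dhcr7, the last enzyme of cholesterol synthesis, measured 995 and 697 in KO testis, against 168 and 128 in KO ovary (5.55-fold, adjusted p = 0.00162). Lss, lanosterol synthase, measured 336 and 288 in KO testis, against 100.3 and 84.0 in KO ovary (3.29-fold, adjusted p = 0.00422). Hsd17b7, which acts in both cholesterol and estradiol synthesis, measured 339 and 233 in KO testis, against 94.9 and 106 in KO ovary (2.73-fold, adjusted p = 0.0093). Fdft1, squalene synthase, was only 2.02-fold higher, at 1853 and 1669 in KO testis and 801 and 942 in KO ovary (adjusted p = 0.00162). These 4 were still called without KO testis replicate 2, and the other 3 were not.

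Promoters of the steroidogenic list were searched for AAGGTCA, the motif bound by the nuclear receptor NR5A1, on both strands, from 250 bases before to 50 bases after each gene's start in RefSeq (GRCm38.p6). Of 28 listed genes 17 had a promoter sequence, and 1 of these (Sult1e1) held the motif, while 4.66% of 27025 promoters did. Star and Cyp17a1, whose promoters were also to be shown, had no promoter sequence in the set used and were not searched. The promoters of Cyp11a1, which catalyses the first step of the pathway, are shown. Start 1 lies in chr9:57997774-57998073 and start 2 in chr9:58014702-58015001, both on the plus strand and both without a match.
Cyp11a1 start 1: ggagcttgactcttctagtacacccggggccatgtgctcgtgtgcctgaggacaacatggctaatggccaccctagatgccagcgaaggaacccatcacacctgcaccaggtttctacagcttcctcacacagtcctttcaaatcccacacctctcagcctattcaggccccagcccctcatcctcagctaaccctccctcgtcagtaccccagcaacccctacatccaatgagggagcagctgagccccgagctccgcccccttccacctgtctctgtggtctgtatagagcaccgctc
Cyp11a1 start 2: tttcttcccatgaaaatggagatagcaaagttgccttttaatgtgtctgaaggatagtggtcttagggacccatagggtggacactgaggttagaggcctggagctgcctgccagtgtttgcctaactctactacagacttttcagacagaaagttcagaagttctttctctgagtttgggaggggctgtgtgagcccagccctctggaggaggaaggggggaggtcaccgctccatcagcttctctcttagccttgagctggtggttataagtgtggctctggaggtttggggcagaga

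On the female side the list for meiosis held the most genes called. Of 47 genes listed for meiotic prophase 36 autosomal ones were tested. Among them 22 were lower in KO testis, against 1.35% of all autosomal genes, and none was higher. The median log2 difference of the list was -1.71. Summed intensities were 6469 and 8514 in KO testis, against 17850 and 21330 in KO ovary. KO testis replicate 2, the array with Xist, had the higher sum of the KO testes. Without it 15 genes were lower and the median was -2.02.

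M1ap, a protein needed for meiosis, had a fitted fall of 38.4-fold (log2 -5.26, SE 0.33, adjusted p = 3.44e-06). It measured 7.17 and 11.1 in KO testis, against 369 and 665 in KO ovary. Terb1, which ties telomeres to the nuclear envelope in meiosis, measured 4.999 and 13.2 in KO testis, against 251 and 607 in KO ovary (log2 -4.99, adjusted p = 0.000955). Dmc1, the recombinase of meiotic strand exchange, measured 11.2 and 15.2 in KO testis, against 195 and 272 in KO ovary (log2 -3.78, adjusted p = 7.19e-05). The KO testis arrays of these 3 genes were all near background. Smc1b, a meiotic cohesin subunit, differed in that KO testis replicate 2 kept a signal, at 42.6 and 150.1 in KO testis and 1243 and 971 in KO ovary (log2 -3.70, adjusted p = 0.00206).

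Genes of several steps of early prophase were called. Rec8, a meiotic cohesin, measured 8.67 and 9.83 in KO testis, against 60.4 and 37.3 in KO ovary (3.90-fold, adjusted p = 0.000284). Spo11, which makes the double-strand breaks, measured 7.31 and 11.3 in KO testis, against 47.4 and 75.2 in KO ovary (4.85-fold, adjusted p = 0.0285). Prdm9, the methyltransferase that places the breaks, measured 4.28 and 5.76 in KO testis, against 30.0 and 65.5 in KO ovary (5.40-fold, adjusted p = 0.00329). All 3 were close to background in KO testis, so their fitted folds are low estimates. Syce1, of the central element of the synaptonemal complex, measured 86.1 and 117 in KO testis, against 733 and 672 in KO ovary (6.76-fold, adjusted p = 0.000391).

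Other genes of the list did not pass. Sycp3, of the lateral element of the synaptonemal complex, measured 659 and 1297 in KO testis, against 3197 and 4219.5 in KO ovary (log2 -1.99, adjusted p = 0.0792). Sycp1, of the transverse filament, measured 76.9 and 289.8 in KO testis, against 306 and 623 in KO ovary (log2 -1.52, adjusted p = 0.278), and its KO testis replicate 2 nearly reached the lower ovary array. Meioc, a partner of YTHDC2 in the entry to meiosis, measured 8.91 and 94.0 in KO testis, against 432 and 889 in KO ovary. Its adjusted p was 0.0525, and 0.0354 without KO testis replicate 2, with a log2 difference of -5.59 there. Mael, a piRNA factor on the same list, was not lower, at 1432 and 1623 in KO testis and 1098 and 1222 in KO ovary.

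Figla, a transcription factor that starts the oocyte programme, measured 3.70 and 6.44 in KO testis, against 78.1 and 163 in KO ovary (13.1-fold, adjusted p = 0.00172). Adamdec1, a secreted metalloprotease, measured 4.33 and 17.5 in KO testis, against 335 and 435 in KO ovary (28.8-fold, adjusted p = 0.0001). Spdya, an activator of CDK2 that is needed at meiotic telomeres, measured 7.12 and 20.2 in KO testis, against 285 and 505 in KO ovary (23.4-fold, adjusted p = 0.000435). KO testis replicate 2 was the higher testis array for all 3 genes and still far below the ovaries. Inca1, Ugt8a, Meiob, Tex101 and Cst12 were also lower, from 10.5-fold for Cst12 to 18.4-fold for Inca1.

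STRA8 binds the motif CNCCTCAG in mouse germ cells, and this motif was searched in the promoters of the meiotic list in the same windows on both strands. A match was found in 8 of 39 promoters, those of 4930447C04Rik, Bhmg1, Figla, Hormad2, Msh5, Sohlh2, Sycp1 and Tex12, while 7.97% of 27025 promoters held one. The promoter of Stra8 itself (chr6:34920698-34920997, plus strand) is shown for the marker and has no match. Figla (chr6:86016941-86017240, plus strand), Msh5 (chr17:35046573-35046872, minus strand) and Hormad2 (chr11:4441033-4441332, minus strand) were chosen after the matches were seen, as the called genes of smallest p with a match. Capitals mark the motif, which occurs 2 times in Figla, at position -82 relative to the start in Msh5 and at -109 in Hormad2.
Stra8: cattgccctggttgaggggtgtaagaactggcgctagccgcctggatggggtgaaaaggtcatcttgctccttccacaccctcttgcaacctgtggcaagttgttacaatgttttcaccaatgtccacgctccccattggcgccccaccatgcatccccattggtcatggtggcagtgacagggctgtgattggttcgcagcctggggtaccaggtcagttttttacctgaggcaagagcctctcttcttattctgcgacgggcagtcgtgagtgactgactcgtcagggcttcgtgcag
Figla: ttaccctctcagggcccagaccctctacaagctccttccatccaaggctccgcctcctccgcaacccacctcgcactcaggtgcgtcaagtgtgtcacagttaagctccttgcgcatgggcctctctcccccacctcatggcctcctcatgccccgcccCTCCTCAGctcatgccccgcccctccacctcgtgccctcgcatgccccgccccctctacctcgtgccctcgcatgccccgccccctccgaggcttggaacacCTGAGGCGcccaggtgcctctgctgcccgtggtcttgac
Msh5: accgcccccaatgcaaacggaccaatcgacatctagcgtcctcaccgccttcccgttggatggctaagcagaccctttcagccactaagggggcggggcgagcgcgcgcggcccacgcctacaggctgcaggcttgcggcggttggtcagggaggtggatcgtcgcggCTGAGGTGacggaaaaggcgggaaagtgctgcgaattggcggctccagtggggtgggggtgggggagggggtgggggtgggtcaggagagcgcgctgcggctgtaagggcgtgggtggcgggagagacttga
Hormad2: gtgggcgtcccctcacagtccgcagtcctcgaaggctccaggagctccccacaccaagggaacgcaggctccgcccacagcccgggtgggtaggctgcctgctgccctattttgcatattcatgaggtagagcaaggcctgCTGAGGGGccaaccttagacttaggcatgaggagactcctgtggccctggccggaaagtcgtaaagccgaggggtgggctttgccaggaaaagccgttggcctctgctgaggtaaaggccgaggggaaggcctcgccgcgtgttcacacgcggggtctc

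Msh5, a partner in crossover formation, measured 6.48 and 6.76 in KO testis, against 22.3 and 26.9 in KO ovary (2.68-fold, adjusted p = 0.00198). Hormad2, a protein of the chromosome axis, measured 12.9 and 14.9 in KO testis, against 45.4 and 61.1 in KO ovary (3.17-fold, adjusted p = 0.00814).

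Male germ cells at this stage stop dividing and start a programme of piRNA and DNA methylation factors that silences transposons. Of 27 genes listed 21 autosomal ones were tested. Among them 7 were higher in KO testis, against 3.76% of all autosomal genes, and none was lower. The median log2 difference of the list was 0.76. Morc1, which represses transposons in male germ cells, measured 618 and 641 in KO testis, against 16.4 and 15.1 in KO ovary (32.1-fold, adjusted p = 0.000602). Tdrd5, a tudor protein of the piRNA pathway, measured 309 and 295 in KO testis, against 16.8 and 19.3 in KO ovary (13.9-fold, adjusted p = 0.000664). Piwil4, the nuclear piRNA-binding protein MIWI2, measured 99.9 and 202 in KO testis, against 7.19 and 8.98 in KO ovary (12.1-fold, adjusted p = 0.000534). The KO ovaries were near background for these 3 genes and the KO testes far above it.

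Tdrd9, a helicase of the same pathway, measured 49.0 and 47.2 in KO testis, against 9.90 and 10.7 in KO ovary (3.65-fold, adjusted p = 2.95e-05). Dnmt3l, the cofactor of de novo DNA methylation, measured 28.4 and 18.7 in KO testis, against 5.27 and 4.88 in KO ovary (2.99-fold, adjusted p = 0.0028). A list for germ cells of both sexes had 23 autosomal genes tested. Among them 5 were higher in KO testis, against 3.76% of all autosomal genes, and none was lower. Dppa4, a pluripotency-associated gene, measured 2055 and 1942 in KO testis, against 278 and 63.3 in KO ovary (14.5-fold, adjusted p = 0.0483), and Utf1, another, measured 197 and 201 in KO testis, against 20.7 and 10.6 in KO ovary (10.7-fold, adjusted p = 0.00342). The KO ovary arrays differed between themselves in both genes, replicate 1 being higher. The median log2 difference of the list was 0.86, and 21 of the 23 genes were above 0, against 53.1% of all autosomal genes. Ddx4, the germ cell helicase, did not pass, at 1509 and 2015 in KO testis and 1313 and 1168 in KO ovary (adjusted p = 0.587). Dazl, an RNA-binding protein of germ cells, was at 2756 and 3689 in KO testis and 3651 and 2655 in KO ovary (adjusted p = 0.967), with overlapping arrays. Without KO testis replicate 2, 5 genes of the male list and 1 of the list for both sexes were higher.

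Genes of pre-granulosa cells made a smaller group in the KO pair. Of 22 autosomal members tested 5 were lower in KO testis, against 1.35% of all autosomal genes, and none was higher. The median log2 difference of the list was -0.33. Summed intensities did not overlap, at 3679 and 5301 in KO testis and 5651 and 5743 in KO ovary. Without KO testis replicate 2, 3 genes were lower. Besides Foxl2 the genes called were Rspo1, Runx1, Irx3 and Wnt9a. Rspo1, the secreted partner of WNT4 in ovary determination, measured 176 and 233 in KO testis, against 622 and 663 in KO ovary (3.13-fold, adjusted p = 0.00541). Irx3, a homeobox factor of the ovary, measured 23.5 and 148 in KO testis, against 566 and 469 in KO ovary (8.04-fold, adjusted p = 0.0101). Its KO testis arrays stood far apart, and without replicate 2 the log2 difference was -4.24, against -3.01 with it.

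Runx1, a transcription factor that works with FOXL2 in the mouse ovary, measured 7.99 and 7.65 in KO testis, against 19.1 and 18.1 in KO ovary (1.91-fold, adjusted p = 0.00612). Wnt9a, a further WNT ligand, measured 17.9 and 19.9 in KO testis, against 63.5 and 52.4 in KO ovary (2.70-fold, adjusted p = 0.0111). Fst, which encodes the activin inhibitor follistatin and is a known target of WNT4 in the ovary, measured 51.8 and 191 in KO testis, against 182 and 341 in KO ovary. These arrays overlapped, and the gene did not pass (log2 -1.28, adjusted p = 0.234). In the WT pair Fst measured 67.3 and 170.0 in WT testis, against 962 and 681 in WT ovary (log2 -2.87, adjusted p = 0.00943). Lgr5, the RSPO1 receptor of ovarian surface progenitors, measured 17.2 and 23.9 in KO testis and 18.6 and 16.1 in KO ovary, against 41.3 and 23.9 in WT testis and 140.3 and 89.8 in WT ovary.

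Of 17 autosomal feedback targets of WNT signalling tested 1, Dkk1, was higher in KO testis and none was lower, with a median log2 difference of 0.10, a share near the 5.11% called over all autosomal genes. Dkk1, a secreted WNT inhibitor, measured 47.3 and 54.1 in KO testis, against 13.0 and 20.6 in KO ovary (2.67-fold, adjusted p = 0.0316), and had an adjusted p of 0.204 without KO testis replicate 2. Axin2, the usual readout of the pathway, measured 107 and 112 in KO testis and 106 and 65.6 in KO ovary (adjusted p = 0.764). Notum, a WNT deacylase, measured 10.2 and 36.2 in KO testis and 10.5 and 14.4 in KO ovary (adjusted p = 0.617). In the WT pair Notum measured 58.6 and 31.1 in WT testis and 147 and 146 in WT ovary (adjusted p = 0.06).

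Signalling lists of mixed cell origin also had members higher, where 3.76% of all autosomal genes were. In the retinoic acid list 3 of 15 autosomal genes tested were higher in KO testis, Aldh1a1, Rbp4 and Cyp26b1. Cyp26b1, the enzyme that degrades retinoic acid in the fetal testis, measured 175 and 115 in KO testis, against 6.42 and 6.63 in KO ovary (13.9-fold, adjusted p = 0.00161). Rbp4, a retinol carrier, measured 47.7 and 69.7 in KO testis, against 10.1 and 13.6 in KO ovary (3.91-fold, adjusted p = 0.000435). For both genes the KO ovary arrays were within a narrow range. In the activin, inhibin and BMP list 3 of 22 were higher, Amh, Inhbb and Inha. Inha, the inhibin alpha subunit, measured 1129 and 809.5 in KO testis, against 166 and 192 in KO ovary (5.26-fold, adjusted p = 0.0271), and Inhbb, a beta subunit of activin and inhibin, was 4.01-fold higher (adjusted p = 0.0161).

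In the list for basement membrane and cord matrix 3 of 21 were higher in KO testis, against 3.76% of all autosomal genes. Col9a3, a collagen of the testis cords, measured 447 and 901 in KO testis, against 6.83 and 7.16 in KO ovary (58.1-fold, adjusted p = 0.00321). Col9a1, another chain of the same collagen, measured 55.1 and 57.5 in KO testis, against 16.9 and 11.6 in KO ovary (3.34-fold, adjusted p = 0.00656). With the mean of its probe sets Col9a1 did not pass in limma (log2 0.96, adjusted p = 0.0901), against a log2 difference of 1.74 here. Col4a2, of the basement membrane, was 1.97-fold higher (adjusted p = 0.0359) and did not pass without KO testis replicate 2, where its log2 difference was 0.90, against 0.98 with it (adjusted p = 0.232). In the list for heat shock and immediate early genes, included as a sign of handling, 3 of 14 were higher. Hspa1b, an inducible HSP70, measured 1333 and 1301 in KO testis, against 227 and 410.3 in KO ovary (4.27-fold, adjusted p = 0.00461). Hspa1a and Nr4a1 were 4.75-fold and 2.41-fold higher. The genes higher without KO testis replicate 2 numbered 3 in the retinoic acid list, 1 in the activin, inhibin and BMP list, 1 in the matrix list and 2 in the heat shock list.

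**Figure D3:**
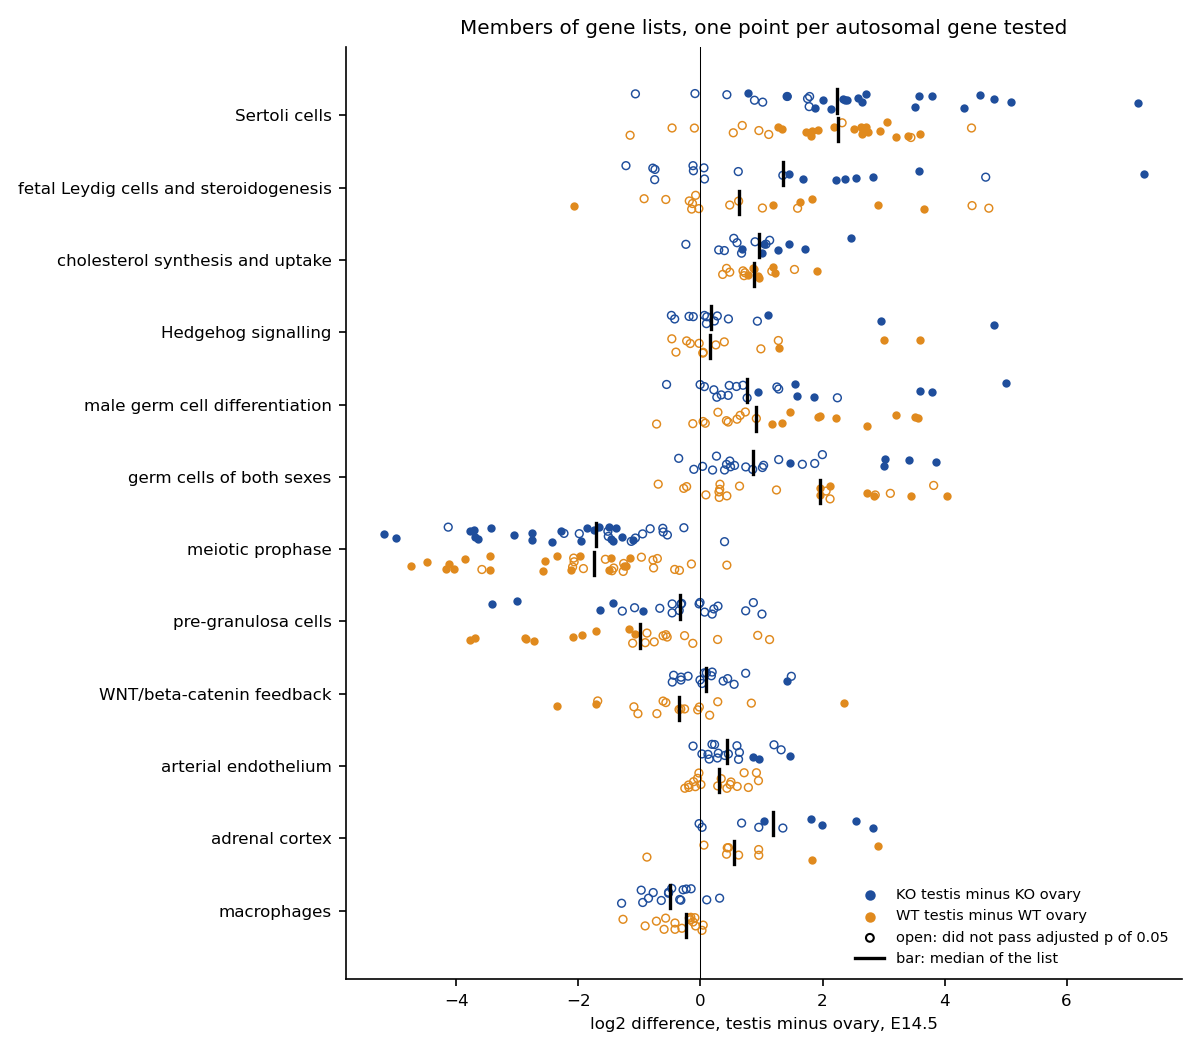
Log2 difference testis minus ovary at E14.5 for members of 12 gene lists, 1 point per autosomal gene tested, the KO pair in blue above the WT pair in orange in each list; filled points passed an adjusted p of 0.05, open points did not, and black bars are list medians. Sertoli cell genes have medians of 2.23 in KO and 2.25 in WT, meiotic genes -1.71 and -1.74, and pre-granulosa genes -0.33 and -0.99.

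Whole gonads can hold other cell types, and the counts of their lists stand beside the 5.11% of all autosomal genes called, 3.76% higher and 1.35% lower. Endothelial genes had 1 of 22 higher in KO testis, Vwf, at 95.6 and 116 in KO testis, against 16.6 and 40.8 in KO ovary (adjusted p = 0.031). Their summed intensity was 4001 and 3806 in KO testis, against 3702 and 5061 in KO ovary, and Pecam1, a defining marker, had overlapping arrays. Arterial genes had 3 of 18 higher, with a median of 0.43 and sums of 5221 and 5841 in KO testis, against 3359 and 4448 in KO ovary. The 3 were Epas1, Heyl and Jag1, at 1.95, 2.75 and 1.82-fold. Neither endothelial nor arterial genes were called without KO testis replicate 2.

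Stromal genes had 3 of 25 higher and 1 lower, of which Cspg4, a pericyte proteoglycan, was 2.42-fold higher and Lum, the matrix proteoglycan lumican, 1.54-fold lower. Surface epithelium genes had 2 of 18 higher and 3 lower. Krt19, a keratin of the surface epithelium, measured 199 and 102 in KO testis, against 533 and 552 in KO ovary (log2 -1.90, adjusted p = 0.00162). Mesonephric genes had 3 of 14 higher and 1 lower, and their sums overlapped, at 1831 and 2635 in KO testis and 2137 and 2614 in KO ovary. The marker Pax8 was near background, at 6.27 and 8.40 in KO testis and 6.39 and 7.79 in KO ovary. The calls left without KO testis replicate 2 were 1 higher in the stromal list and 1 lower in the surface epithelium list, and none in the mesonephric list.

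Genes of the adrenal cortex, which shares steroidogenic enzymes with Leydig cells, had 5 of 10 higher in KO testis and none lower, with a median log2 difference of 1.19. Their sums were 9856 and 8569 in KO testis, against 2785 and 2941 in KO ovary. The same number was higher without KO testis replicate 2. Scarb1 and Hsd3b1 are on the Leydig list too. The defining adrenal enzyme Cyp11b1 measured 53.8 and 30.7 in KO testis, against 6.50 and 11.4 in KO ovary (3.52-fold, adjusted p = 0.0255), and Cyp21a1 measured 31.0 and 12.05 in KO testis, against 6.72 and 9.93 in KO ovary (adjusted p = 0.136). WT testes held 16.7 and 11.9 of Cyp11b1, less than the KO testes. Whether adrenal-type cells have a part in the steroidogenic values was not tested.

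Chromaffin and sympathetic genes had 0 of 17 called by limma, with 456.9 and 486.3 summed in KO testis and 656.8 and 600.6 in KO ovary, and Th, their defining enzyme, lay at background on all 4 arrays. Macrophage genes had 0 of 16 called, a median of -0.50, and sums of 1339 and 1622 in KO testis and 1592 and 2315 in KO ovary. Erythroid genes had 0 of 9 called, and Hbb-y, an embryonic globin, was between 12937 and 16902 on the 4 arrays. Proliferation genes had 1 of 21 lower, Ccne2, a cyclin, at 374 and 379 in KO testis and 1001 and 1269 in KO ovary (2.97-fold, adjusted p = 0.0358). The part of these cell types in the results was not tested.

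The WT pair of E14.5 shares no array with the KO pair, though both stand in the same fit. There 438 genes (3.69%) were called, 263 (2.22%) higher and 175 (1.47%) lower in WT testis. This count depended on single arrays, being 83 without WT ovary replicate 1 and 856 without WT ovary replicate 2, and 157 and 179 without WT testis replicate 1 and WT testis replicate 2. In both pairs 290 genes were called in the same direction, 207 higher and 83 lower in testis, and 0 in opposite directions. These 290 are 47.9% of the KO calls and 66.2% of the WT calls. Of the 606 KO calls 601 (99.2%) had the same sign in WT, and of the 438 WT calls 426 (97.3%) had the same sign in KO. The share with the same sign over all autosomal genes was not counted, so these shares have no baseline here.

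Differences were larger in KO than in WT for 505 of the 606 KO calls (83.3%) and for 191 of the 438 WT calls (43.6%), each set having been picked for its size in its own pair. Across autosomal genes the log2 differences of the pairs had a Pearson r of 0.81 and a Spearman rho of 0.73, a description over genes that are not independent. WT ovary replicate 2, the array with Y-linked signal, gave 1459 for Cyp17a1 and 565 for Cst9, against 6.58 and 3.40 in WT ovary replicate 1. Both genes were called in KO but not in WT (adjusted p = 0.129 and 0.144), with the WT testes at 3787 and 2851 for Cyp17a1 and 1707 and 1157 for Cst9.

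Called in KO but not in WT were 316 genes, 239 higher and 77 lower, of which 221 had an unadjusted p under 0.05 with the same sign in WT. The test of the difference between the pairs, which uses all 8 arrays of E14.5, called 0 genes (0%) in limma, the only tool run, with 274 at an unadjusted p under 0.05 and a smallest adjusted p of 0.139. A call in one pair alone is therefore not shown to differ between the pairs. Leaving out WT ovary replicate 2 gave 15 genes and leaving out KO testis replicate 1 gave 7. Without the 3 E14.5 arrays with over 10% RNA of the other sex, WT testis, WT ovary and KO testis each had a single array. The gap between the pairs, KO minus WT, was then -6.06 for Dppa3, 2.08 for Aspa and -2.22 for Msx2. With all arrays it was -2.97, 0.95 and -0.85. Replicates differed widely here, Aspa at 44.7 and 8.61 in WT ovary and Msx2 at 49.7 and 17.7 in WT testis. Dppa3 was low in WT ovary replicate 1 alone, against 1197 in replicate 2. For Akr1cl, Cbln1 and Galnt5 the gap was -2.01, -4.45 and -2.14, against -1.51, -2.18 and -1.76 with all arrays. None of these genes was called in the KO pair.

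**Figure D4:**
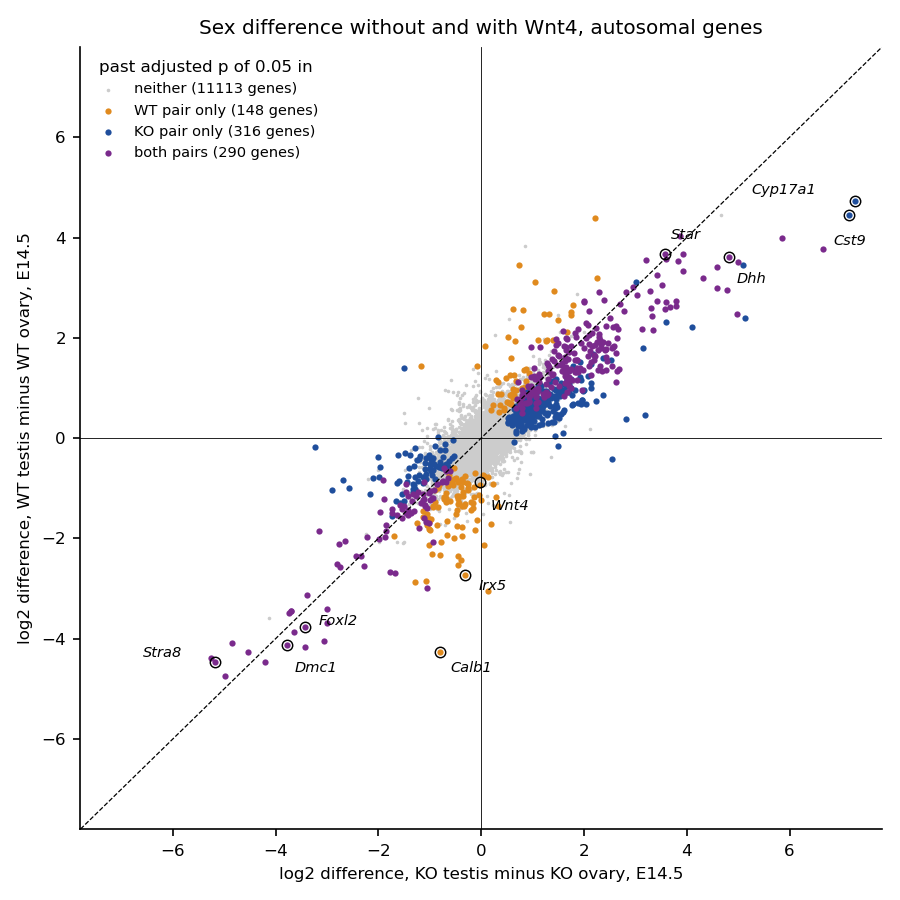
Log2 difference of KO testis minus KO ovary (horizontal) against WT testis minus WT ovary (vertical) at E14.5, 1 point per autosomal gene. Purple points were called in both pairs (290), blue in KO alone (316), orange in WT alone (148) and grey in neither (11113), and the dashed line marks equal differences; Stra8, Dmc1, Foxl2 and Star lie near the line, Dhh, Cyp17a1 and Cst9 below it at the upper right, and Irx5 and Calb1 near 0 in KO.

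Genes with the smallest unadjusted p for the difference between pairs were mostly those high in WT ovary alone. None passed the adjusted threshold, so their values are given as a description. Irx5, a homeobox neighbour and partner of Irx3 in the ovary, measured 3.25 and 5.17 in KO testis and 5.20 and 7.08 in KO ovary, against 4.79 and 5.11 in WT testis and 75.1 and 40.5 in WT ovary. Its log2 difference was -0.31 in KO and -2.73 in WT, a gap, KO minus WT, of 2.42 (SE 0.41, unadjusted p = 4.67e-05, adjusted p = 0.139). Calb1, a calcium-binding protein, measured 10.9 and 11.1 in KO testis and 22.5 and 21.9 in KO ovary, against 24.8 and 5.10 in WT testis and 358 and 265 in WT ovary. Thus for both genes the WT ovaries stood above the other 6 arrays of E14.5.

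Prcd, Amph, Insyn2b, Lzts1 and Rmst had the same order, with gaps of 2.10, 1.68, 3.19, 1.93 and 1.41 on the log2 scale. Lzts1 was also called in the KO pair itself, 2.07-fold lower in KO testis (adjusted p = 0.0389). Galnt5, Cnmd and Cpa1 went the other way, with gaps of -1.76, -2.89 and -2.61. Cnmd, an inhibitor of angiogenesis, was lower in KO testis, at 46.4 and 20.7 in KO testis and 73.1 and 124 in KO ovary (log2 -1.50, adjusted p = 0.0306). With the E14.5 arrays alone Cnmd did not pass in limma (adjusted p = 0.107). Without KO testis replicate 2 its log2 difference was -0.98. In the WT pair it measured 59.0 and 25.9 in WT testis, against 12.4 and 12.8 in WT ovary (log2 1.39, adjusted p = 0.0542). It is 1 of 5 genes called in KO with the opposite sign in WT, the others being Niban1, Sall1, Spon2 and Vcan.

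Sall1, a zinc finger factor of kidney and mesonephros, measured 42.3 and 118 in KO testis and 7.86 and 10.04 in KO ovary, against 84.9 and 158 in WT testis and 207 and 119 in WT ovary. The KO pair differed 5.83-fold (adjusted p = 0.00738) and the WT pair by -0.43 on the log2 scale, with an adjusted p of 0.46 for the gap. Slc18a2, a vesicular monoamine transporter, was lower in KO testis, at 12.9 and 12.6 in KO testis and 157 and 149.7 in KO ovary (log2 -3.23, adjusted p = 0.0178), against 12.3 and 22.4 in WT testis and 21.6 and 17.4 in WT ovary. Npy, a neuropeptide, was higher, at 244 and 165 in KO testis and 19.0 and 18.2 in KO ovary (log2 3.18, adjusted p = 0.00241), against 53.0 and 89.2 in WT testis and 34.7 and 68.3 in WT ovary. The unadjusted p for the gap was 0.01 for Slc18a2 and 0.00259 for Npy. In these genes the KO ovaries, high for Slc18a2 and low for Sall1 and Npy, lay outside the range of the 6 other arrays of E14.5. For Npy the KO testes, at 244 and 165, also lay above every other array of E14.5.

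At E12.5 the KO pair had 119 genes called (1%), 43 higher (0.362%) and 76 lower (0.64%) in KO testis. Of these, 27 were called in the same direction at E14.5, which is 22.7% of the E12.5 calls and 4.46% of the E14.5 calls, 21 of them higher and 6 lower. The shared genes included Gdnf, Aldh1a1, Tesc, Aard, Kazald1 and Cstdc1 on the male side and Runx1 and Wnt9a on the female side. Aard, a gene of Sertoli cells, measured 1913 and 2107 in KO testis and 89.5 and 593 in KO ovary at E12.5 (adjusted p = 0.0428), and 2803 and 2683 in KO testis and 195 and 259 in KO ovary at E14.5 (adjusted p = 0.00561). The 446 genes higher at E14.5 had a median log2 difference of 0.22 at E12.5, against 1.42 at E14.5, and the 160 lower genes -0.05, against -1.30. KO ovary replicate 2 of E12.5 carried 17.9% Y-linked signal. Ratios of 3' to 5' signal at E12.5 were 1.76 and 1.29 in the KO testes and 2.27 and 1.35 in the KO ovaries. The replicate SD was 0.452 in KO testis and 0.545 in KO ovary at E12.5, against 0.370 and 0.335 at E14.5. The part of these in the counts of E12.5 and of the stages was not tested.

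The change of the KO difference between the stages was called for 149 genes (1.26%), a test that shares the E14.5 arrays with the main comparison. Without KO ovary replicate 1 of E14.5 it was called for 33, without KO ovary replicate 2 for 64, without KO testis replicate 1 for 64 and without KO testis replicate 2 for 73. Without WT ovary replicate 1 or WT ovary replicate 2, which enter only through the shared variance, it was called for 249 and 251. M1ap measured 5.41 and 5.23 in KO testis and 5.49 and 5.80 in KO ovary at E12.5, and its gap, E14.5 minus E12.5, was -5.22 (adjusted p = 0.000279). Tdrd9 measured 7.09 and 7.35 in KO testis and 6.85 and 6.88 in KO ovary at E12.5 (gap 1.82, adjusted p = 0.00182). Clps, the pancreatic lipase cofactor colipase, measured 4.96 and 4.63 in KO testis and 5.17 and 3.58 in KO ovary at E12.5, and 118 and 142 in KO testis and 5.06 and 4.46 in KO ovary at E14.5 (gap 3.85, adjusted p = 0.00017). All 3 genes were at background in both sexes at the earlier stage.

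Scarb1 measured 358 and 585 in KO testis and 714 and 435 in KO ovary at E12.5. These arrays overlapped, and the gap between the stages was 2.84 (adjusted p = 0.0118). Dhh was already high at E12.5, at 413 and 684 in KO testis and 31.8 and 111 in KO ovary, and its gap between stages was 1.75 (adjusted p = 0.385). Cyp17a1 measured 20.1 and 268 in KO testis and 6.68 and 8.52 in KO ovary at E12.5, and Stra8 5.01 and 5.73 in KO testis and 4.82 and 5.58 in KO ovary, with gaps that did not pass (adjusted p = 0.302 and 0.053). Cyp11b1, Ret and Col25a1 were called at both stages in opposite directions, lower in KO testis at E12.5 and higher at E14.5. Cyp11b1 measured 16.8 and 8.72 in KO testis and 113 and 36.2 in KO ovary at E12.5. Th, the enzyme of catecholamine synthesis, measured 9.45 and 5.33 in KO testis and 127 and 62.1 in KO ovary at E12.5. At that stage 7 of 17 chromaffin and sympathetic genes were lower in KO testis, against 0.64% of all autosomal genes.

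**Figure D5:**
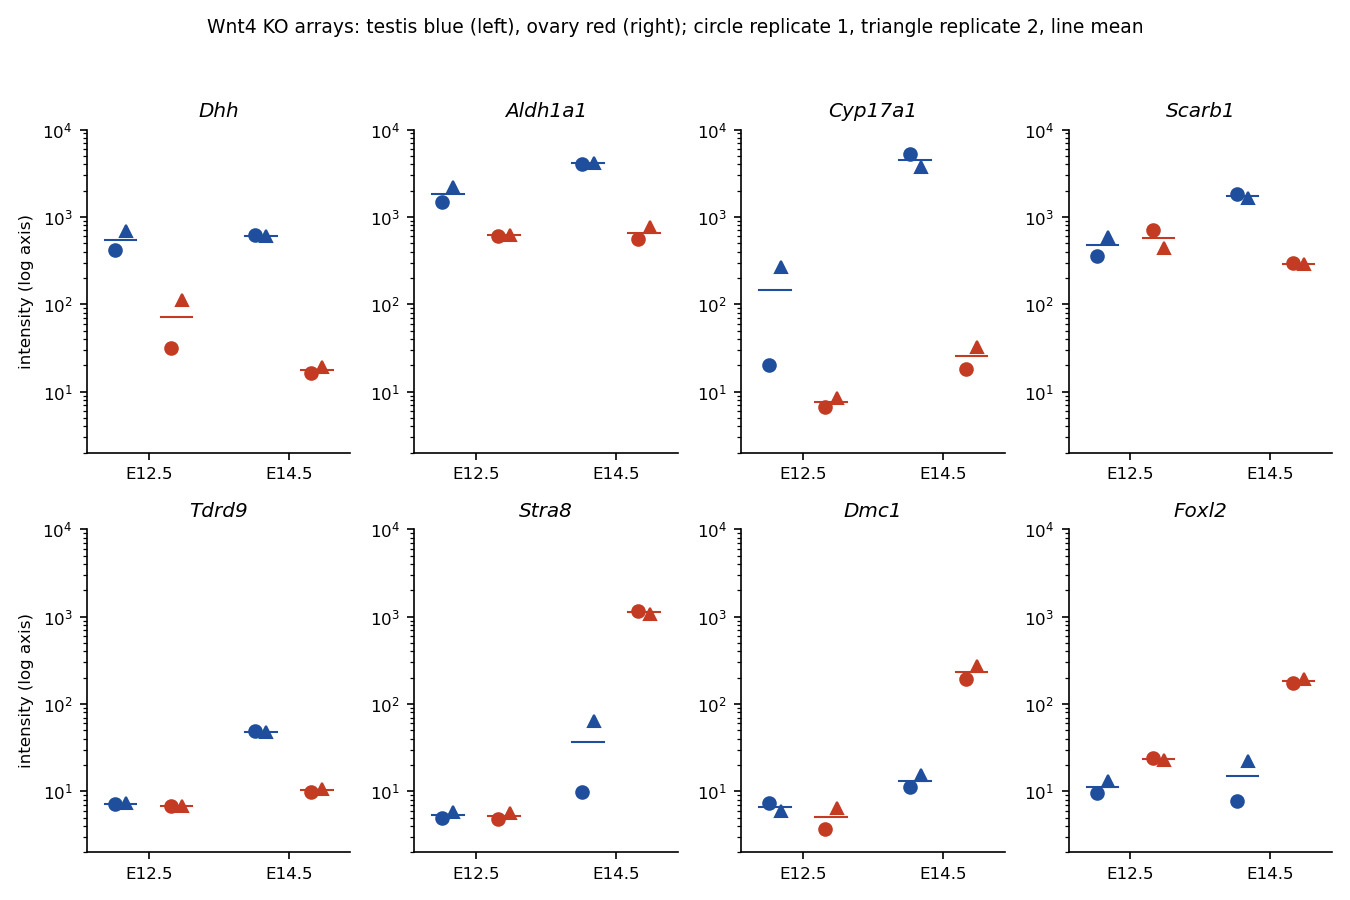
Intensity of 8 genes on the KO arrays at E12.5 and E14.5, on a log axis, KO testis in blue to the left of KO ovary in red; circles are replicate 1, triangles replicate 2 and lines the group mean. Dhh and Aldh1a1 separate the sexes at both stages, whereas Scarb1, Tdrd9, Stra8 and Dmc1 overlap or lie close together at E12.5 and are apart at E14.5.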

How the data were processed

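Per the labels' protocols, total RNA was extracted from the dissected gonads, made into biotinylated cRNA and hybridised to Affymetrix arrays, and per the submitters' processing notes the signals come from MAS5. The authors deposited 1 intensity per probe set and array on a linear scale, with no detection calls used here. Precision is set by how many arrays each group has. Of 45101 probe sets 64 were controls, 34945 had 1 gene symbol, 932 several and 9160 none, and 34884 matched a RefSeq gene.

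Values were analysed as log2(intensity + 4), the pseudocount of 4 being the arrays' median 20th percentile after rounding. A probe set stayed if it exceeded the median of its array on 2 or more arrays (25596 probe sets), and the one with the highest mean stood for its gene. A group-means model of all 16 arrays was fitted with limma 3.58.1 under R 4.3.3 (lmFit, then eBayes with a trend in intensity), which left 8 residual degrees of freedom plus 5.23 from the prior. Tests were two-sided and called at 0.05 after Benjamini-Hochberg adjustment of the p-values of all 12332 genes. The code was tested on simulated data with known changes. RNA of the other sex was estimated from Xist in testis and from Eif2s3y, Kdm5d and Uty in ovary, less the lowest array, over the mean of the other sex at that stage. Figures were drawn with matplotlib 3.10.9.

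Named genes are Wnt4, the markers, the largest rises and falls, the largest differences shared with WT or called in KO alone, the smallest p for KO minus WT, and in each of 23 gene lists up to 6 members by smallest p and up to 4 by the test of KO minus WT. Spo11, Prdm9, Meioc, Mael, Msh5, Hormad2, Gli1, Axin2 and the shared genes of E12.5 were named after their values were seen. The lists hold 493 entries, of which 445 were on the array and 406 were autosomal and tested. Members, lists and comparisons were chosen with earlier results of these data known. Same-numbered arrays of E14.5 did not deviate together in all groups (correlations from -0.293 to 0.582). The correlation was 0.209 between KO ovary and KO testis and 0.582 between WT testis and KO testis. Such correlations cannot settle whether the numbers pair the arrays, and the main fit took no pairing. Alternatives covered the pseudocount, filter, normalization, probe set choice, array weights, samples in the fit, RNA of the other sex, threshold and each array left out.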

Additional observations from a re-analysis of the deposited data

Results flagged for a closer look

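The sex difference of the KO gonads differed between E14.5 and E12.5 for 149 autosomal genes in limma's test of that difference. The 10 of smallest p, as log2 differences of testis minus ovary at E14.5 less the same at E12.5, were Clps at 3.85, M1ap at -5.22, Rrad, a small GTPase, at 2.69, Th, tyrosine hydroxylase, at 3.23, Tdrd9 at 1.82, Cyp2r1, a vitamin D hydroxylase, at -2.24, Dmc1 at -4.03, Scd1, a fatty acid desaturase, at 2.66, Syce1 at -3.44 and Adamdec1 at -4.75. For Th the stage effect rests on the E12.5 arrays, where it measured 9.45 and 5.33 in KO testis and 127 and 62.1 in KO ovary, while at E14.5 it measured 5.04 and 4.93 in KO testis and 4.42 and 3.53 in KO ovary. Scd1 had log2 differences of -1.08 at E12.5 (adjusted p = 0.0519 in limma) and 1.59 at E14.5 (adjusted p = 0.00162). Outside the autosomal genes compared, Xist measured 788 in KO testis replicate 2, a level that KO testis replicate 1 lacked at 7.95.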

How the results depend on the processing

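The count between KO testis and KO ovary at E14.5 was 606, 446 higher and 160 lower. It became 1325 (859 higher, 466 lower) with array weights, 920 (293 lower) when the 4 KO arrays of E14.5 were fitted alone, 346 (257 higher, 89 lower) without the E14.5 arrays over 10% RNA of the other sex, and 303 (242 higher, 61 lower) at a threshold of 0.01. The lower count was 255 with that share as a covariate and 280 at a threshold of 0.10. Leaving out 1 E14.5 array gave 284 to 685 genes, 204 to 484 higher and 49 to 201 lower. The WT count of 438 was 242 with the E14.5 arrays alone, 796 with the covariate, 171 at 0.01 and 708 at 0.10, and 83 to 856 with 1 array left out. The count of 0 for KO minus WT was 2 and 4 with pseudocounts of 16 and 32, 5 with array weights, 6 without the arrays of high other-sex RNA, 9 with the covariate and 0 to 15 with 1 array left out. The stage count of 149 was 231 with array weights, 64 with the WT testis arrays of E12.5 averaged, 256 with the covariate, 18 at 0.01, 346 at 0.10 and 33 to 251 with 1 array left out. Whether the replicate numbers pair the arrays is not known. With the replicate number as a block the KO count was 491 and the stage count 85, which says nothing of weaker effects. The median log2 difference of all genes moved to 0.02 with quantile normalization and 0.03 with median centring. The causes of these shifts were not tested. The fit without the arrays of high other-sex RNA left a single array in WT testis, WT ovary and KO testis of E14.5. Intensities near background limit the folds of genes at that level.

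The sign of the KO difference held under all alternatives run for each of the 103 genes called among the 214 named, while 27 of the uncalled genes changed sign and were called under none of them. For the called genes the KO testis and KO ovary arrays do not overlap. Leaving out an array or changing the variance model or the threshold therefore cannot turn their sign, and those alternatives are no check of it. The call held less often than the sign. Of the 103 genes 38 did not pass at a threshold of 0.01, 17 with the E14.5 arrays alone and 13 with the mean of probe sets. With array weights 0 calls were lost, while leaving out a KO array of E14.5 also lost calls. Without the E14.5 arrays over 10% RNA of the other sex, the log2 values that changed sign were Bmpr1b at -0.11, Ddc at -0.078, Disp1 at -0.057, Galnt5 at -0.23, Hemgn at -0.047, Insyn2b at -0.24, Klf1 at -0.14, Lgr5 at -0.0077, Mvk at 0.021, Notum at -0.20, Npnt at -0.37, Pax8 at -0.11, Rhag at -0.034, Sox17 at -0.035 and Tek at -0.014. With that share as a covariate the sign turned for Insyn2b at -0.17, Npnt at -0.20, Sox17 at -0.0066 and Tek at -0.0093, with the mean of probe sets for Bmpr1b at -0.0052, Disp1 at -0.019, Mvk at 0.13 and Pdgfra at -0.030, and with quantile normalization for Ddc at -0.018. With 1 array left out the log2 differences ranged over -0.11 to 0.45 for Bmpr1b, -0.31 to 0.0044 for Csf1r, -0.18 to 0.20 for Ddc, -0.22 to 0.35 for Disp1, -0.084 to 0.61 for Dppa5a, -0.23 to 0.38 for Galnt5, -0.47 to 0.59 for Hba-x, -0.68 to 1.37 for Hbb-bh1, -0.047 to 2.57 for Hemgn, -0.24 to 0.50 for Insyn2b, -0.14 to 1.01 for Klf1, -0.0077 to 0.39 for Lgr5, -0.020 to 0.090 for Mcm2, -0.61 to 0.13 for Mvk, -0.96 to 0.20 for Myh11, -0.093 to 0.44 for Ngfr, -0.20 to 1.30 for Notum, -0.37 to 0.51 for Npnt, -0.11 to 0.16 for Pax8, -0.042 to 0.29 for Pdgfra, -0.034 to 2.59 for Rhag, -0.18 to 0.62 for Sox17, -0.36 to 0.47 for Tek, -0.26 to 1.11 for Tfap2c, -1.395 to 0.47 for Tnfrsf19, -0.23 to 0.18 for Wnt4 and -0.24 to 0.12 for Wt1.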

Other observations

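Some genes of the KO testes differed between the 2 arrays rather than between the sexes. The erythroid genes Rhag, Hemgn and Klf1 measured 48.3, 65.1 and 23.1 in KO testis replicate 2, the array with Xist, against 4.49, 7.23 and 8.22 in KO testis replicate 1. Ttr, the thyroid hormone carrier transthyretin, measured 367 in replicate 2, against 11.7 in replicate 1. None of these 4 was called between KO testis and KO ovary.

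Vcan, a large matrix proteoglycan, and Niban1, a stress response gene, were higher in KO testis although the WT pair had the opposite sign. Vcan measured 1911 and 2796 in KO testis and 1351 and 1617 in KO ovary (adjusted p = 0.0446 in limma), against 3124 and 2759.7 in WT testis and 3036 and 3129 in WT ovary. Niban1 measured 151 and 139.6 in KO testis and 51.4 and 47.3 in KO ovary (adjusted p = 0.0353), against 74.9 and 108 in WT testis and 122 and 83.3 in WT ovary. In Vcan the KO ovaries were the low arrays of E14.5 and the WT arrays overlapped between the sexes.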
